A study of Mus musculus with 6 samples.

Results

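Class 3 semaphorins, Slits and Robo receptors form a group of guidance genes, of which 9 were followed in nuclei of the mouse tibial periosteum before and after fracture: the ligands Sema3a, Sema3c, Sema3d, Sema3e, Sema3g, Slit2 and Slit3, and the receptors Robo1 and Robo2. They were taken by name and matched by symbol in the gene lists of all 6 libraries, and all 9 were found among the 30406 genes that every library listed. Levels are given in CPM, the UMIs of a gene (unique molecular identifiers, 1 for each captured transcript) divided by all UMIs of the nuclei concerned and expressed per 1000000 of them.

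Class 3 semaphorins are secreted proteins that act through receptor complexes of a neuropilin and a plexin, except that Sema3e can bind plexin D1 directly. Slits are secreted ligands of the Robo receptors, which pass the signal on through adaptor proteins inside the cell. Both systems are known for repelling growing axons and for steering vessels, and in bone Sema3a is known to restrain osteoclast formation, while Slit3 is known to act on the vessels that accompany bone formation.

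Nuclei were extracted from the tibial periosteum of C57BL6 mice, males and females of 12 weeks by the study's methods, either without injury (2 libraries) or, with the hematoma included, at 3 days (2 libraries), 5 days (1 library) and 7 days (1 library) after an open tibial fracture that was not stabilised. The study's methods give 4 mice for uninjured periosteum, without saying whether for each library, and 4 to 9 mice for the days after fracture. Nuclei were sorted with the DNA dye Sytox-AAD before droplet capture. The labels do not say whether the libraries of a group came from separate animals, so p-values measure the spread between these libraries, which may be technical.

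The files held 655 and 1446 barcodes for uninjured replicates 1 and 2, 754 and 4712 for day 3 replicates 1 and 2, 2536 for day 5 and 3448 for day 7. Their totals were 1499281, 6570301, 2516184, 29796296, 10411092 and 4500767 UMIs in the same order. At most 7 barcodes were shared by a pair of libraries, and 18 over all pairs. Uninjured replicate 1 and days 5 and 7 were counted with Cell Ranger 6.0.0 and the other 3 libraries with 7.1.0. The gene lists differed too, with 31055 genes in both uninjured libraries and day 3 replicate 2. Day 3 replicate 1 and day 7 listed 32285 genes and day 5 listed 32287. Genes listed by every library held at least 98.85% of the UMIs of each. The labels name a human reference in the extraction text and mm10 in the processing notes, and the gene identifiers in the files are those of the mouse.

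Uninjured replicate 1 stood apart in a further respect: it held 29 UMIs of EGFP in 24 barcodes and 14 UMIs of tdTomato in 12 barcodes, although its label gives C57BL6. Uninjured replicate 2 and day 3 replicate 2 listed the same reporter genes with 0 UMIs. Members called with all libraries are therefore also given without uninjured replicate 1, and called genes outside the members are not.

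The 9 genes lie on 4 chromosomes of build GRCm38. Sema3d (ENSMUSG00000040254) spans chr5:12383385-12588948, Sema3a (ENSMUSG00000028883) chr5:13125414-13602565, Sema3e (ENSMUSG00000063531) chr5:14025276-14256689 and Sema3c (ENSMUSG00000028780) chr5:17574281-17730268, all on the plus strand. These 4 neighbours thus sit within 5347 kb, with 536, 423 and 3318 kb between them. Slit2 (ENSMUSG00000031558) lies farther along at chr5:47983138-48307733 on the plus strand, Slit3 (ENSMUSG00000056427) at chr11:35121224-35708507 on the plus strand and Sema3g (ENSMUSG00000021904) at chr14:31217860-31230352 on the plus strand. Robo1 (ENSMUSG00000022883) at chr16:72308306-73046095 on the plus strand and Robo2 (ENSMUSG00000052516) at chr16:73891839-74411825 on the minus strand are separated by 846 kb. In the nuclei kept, Slit3 gave 19756 UMIs, Robo1 12616, Slit2 6532, Sema3c 4793, Robo2 2371, Sema3a 2049, Sema3d 1896, Sema3e 681 and Sema3g 278.

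Of 8074 nuclei that passed the filters, 7131 were left after clusters of myogenic nuclei had been removed within each library. After a further 3 myogenic clusters of 799 nuclei had been set aside from the integrated data, 6332 nuclei in 23 clusters remained, and their markers named 13 populations. The guidance genes and the markers, 177 genes, were kept out of the features that built the clusters. Scrublet marked 18 of 7131 nuclei as doublets, so few that doublets were in effect not removed. Whether the caller had worked was not tested. Stromal nuclei are taken here as a sum of 5 populations: those like skeletal stem and progenitor cells (SSPC-like), like injury-induced fibrogenic cells (IIFC-like), like fibroblasts, like osteoblasts and like chondrocytes. Populations were built from the same nuclei in which levels are read, so differences between populations are descriptions with no test, and a population of a library is given only where it held at least 20 nuclei. Intervals are exact 95% Poisson intervals and cover counting error only. For 3 populations the pooled sum of their own markers lay below that of another list, so their names are in doubt. Tendon-like nuclei held 1558 CPM of 5 tendon markers against 9071 CPM of 6 IIFC and 1758 CPM of 6 osteoblast markers. Fibroblast-like nuclei held 4539.9 CPM of 6 fibroblast markers against 7284 CPM of the IIFC markers, and SSPC-like nuclei 2340.1 CPM of 4 SSPC markers against 4291 CPM of the IIFC and 3666 CPM of the fibroblast markers.

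Sema3a, which repels axons and vessels through neuropilin 1, had its highest pooled levels in tendon-like nuclei, at 439 CPM (399 to 483), and adipocyte-like nuclei, at 412 CPM (342 to 493), with overlapping intervals. Adipocyte-like nuclei numbered 35, with under 20 in each library. Nerve-sheath fibroblast-like nuclei followed at 271 CPM, then osteoblast-like nuclei at 136 and endothelial-like nuclei at 125 CPM, which did not differ beyond counting error. The endothelial-like level was uneven, with 270 of 396 UMIs in a lymphatic-like subcluster that held 988 CPM pooled. Fibroblast-like and IIFC-like nuclei stood at 95.2 and 92.6 CPM, and immune-like and pericyte and smooth muscle-like nuclei at 10.0 and 5.63 CPM. The order was not the same in each library. Tendon-like nuclei were highest at days 5 and 7, with 639 and 302 CPM, nerve-sheath fibroblast-like nuclei in uninjured replicate 1, with 356 CPM, and endothelial-like nuclei in day 3 replicate 1, with 346 CPM, of which 1 nucleus carried 28 of 32 UMIs. In day 3 replicate 2 the highest value was that of osteoblast-like nuclei, 522 CPM, of which 1 nucleus carried 54 of 79 UMIs, and in uninjured replicate 2 that of IIFC-like nuclei, 857 CPM, of which 1 nucleus carried 58 of 126.

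Sema3c, a semaphorin known for its part in the patterning of the heart's outflow vessels, was highest in SSPC-like nuclei, at 1731 and 2244 CPM in the 2 uninjured libraries. Nerve-sheath fibroblast-like nuclei of the same libraries held 616 and 545 CPM, IIFC-like nuclei 515 and 837 CPM, and fibroblast-like nuclei 504 and 678 CPM. The SSPC-like level thus exceeded that of every other population in each uninjured library. At day 3, fibroblast-like nuclei held 152 and 87.6 CPM and IIFC-like nuclei 91.5 and 45.6 CPM, and SSPC-like nuclei numbered 3 and 10, too few for a level. At day 5 the levels were 244 CPM in fibroblast-like, 308 in IIFC-like and 313 in chondrocyte-like nuclei, against 223, 230.3 and 85.2 CPM at day 7.

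Sema3d was highest in nerve-sheath fibroblast-like nuclei of both uninjured libraries, at 227 and 604 CPM, and in chondrocyte-like nuclei at days 5 and 7, at 493 and 159 CPM. In uninjured replicate 1 fibroblast-like nuclei, at 195 CPM, were lower by less than counting error. Pooled, nerve-sheath fibroblast-like and chondrocyte-like nuclei held 393 CPM (334 to 460.0) and 367 CPM (337 to 399) and could not be told apart. Endothelial-like nuclei held 105 CPM pooled, and a lymphatic-like subcluster of them held 1138 CPM. Fibroblast-like nuclei went from 195 and 279 CPM without injury to 7.22 and 9.15 CPM at day 3, with 42.4 CPM at day 5 and 55.2 CPM at day 7. Osteoblast-like nuclei held 54.6 CPM in uninjured replicate 2, 99.1 CPM in day 3 replicate 2, 277 CPM at day 5 and 86.9 CPM at day 7.

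Sema3e, the semaphorin that signals through plexin D1, was highest in SSPC-like nuclei, with 251 and 784 CPM in the uninjured libraries. Schwann-like nuclei followed, with 168 and 235 CPM, and in uninjured replicate 1 the difference lay within counting error. Pooled levels were 480 CPM (427 to 537) and 261 CPM (199 to 336), the latter above both Schwann-like libraries. The next levels could not be ranked. Chondrocyte-like and IIFC-like nuclei held 35.3 CPM (26.5 to 46.0) and 30.2 CPM (25.2 to 36.0) pooled, and single uninjured libraries reached 149.7 CPM in IIFC-like and 86.4 CPM in nerve-sheath fibroblast-like nuclei. Fibroblast-like nuclei had 0 and 116 CPM without injury and at most 8.27 CPM in any library after fracture.

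Sema3g, known as a semaphorin of arterial endothelium, was found in Schwann-like nuclei, at 104 CPM pooled (66.8 to 155). In endothelial-like nuclei it was at 73.4 CPM (64.3 to 83.5), and the intervals overlapped. The Schwann-like levels ran from 91.1 to 239 CPM over the 2 libraries with at least 20 of these nuclei. The endothelial-like levels were 63.7 and 103 CPM without injury, 64.9 and 68.1 CPM at day 3, 45.1 CPM at day 5 and 43.5 CPM at day 7. The uninjured and day 3 groups overlapped, and the single values of days 5 and 7 lay below both. Of the 232 endothelial-like UMIs, 183 lay in an arterial-like subcluster. It made up 11.1% and 22.8% of these nuclei without injury and 10.3% and 6.76% at day 3, with 6.25% at day 5 and 6.02% at day 7. The part of this share in the Sema3g levels was not tested. In the populations counted as stromal no library exceeded 4.39 CPM.

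**Figure D1:**
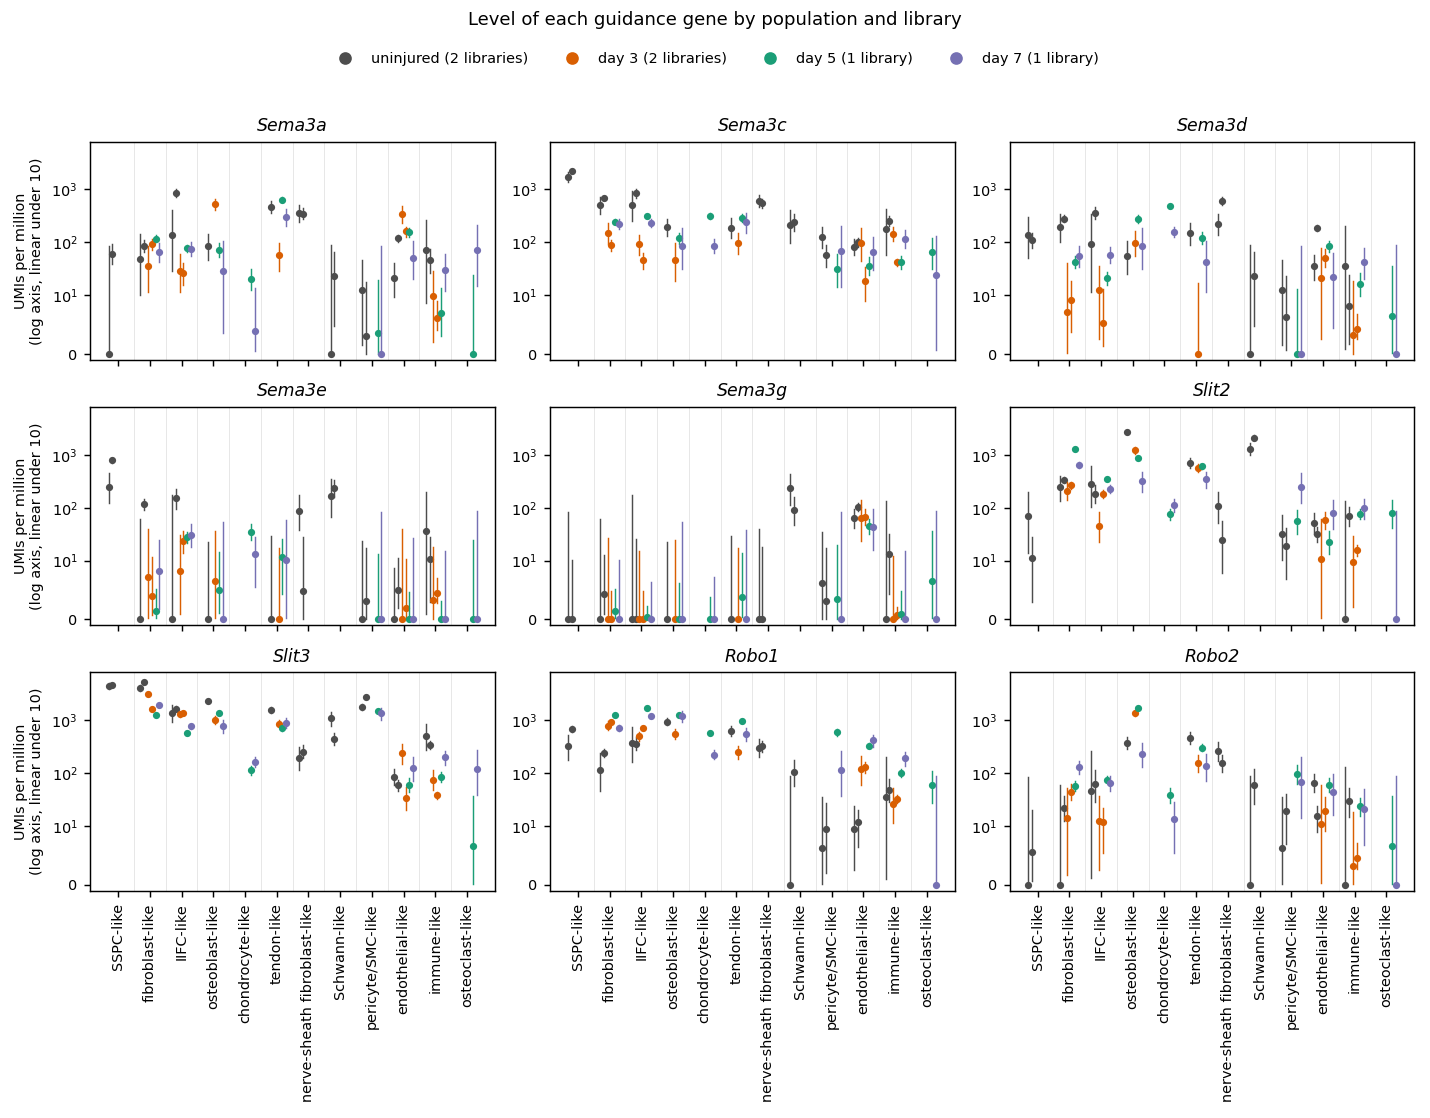
Level of each of the 9 genes (CPM, on an axis that is linear under 10 and logarithmic above) in each population, with 1 point for each library that held at least 20 nuclei of it and bars for 95% Poisson intervals. In this clustering Sema3c and Sema3e peak in SSPC-like nuclei of the uninjured libraries, and Robo2 peaks in osteoblast-like nuclei at days 3 and 5.

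Slit2 was highest in osteoblast-like nuclei of uninjured replicate 2, at 2738 CPM, and of day 3 replicate 2, at 1216 CPM, against 855 CPM at day 5 and 319 CPM at day 7. Schwann-like nuclei held 1293 and 2111 CPM in the uninjured libraries, the latter with 156 of 278 UMIs in 1 nucleus. Fibroblast-like nuclei held 244 and 335 CPM without injury, 209 and 264 CPM at day 3, 1296 CPM at day 5 and 645 CPM at day 7, so that at days 5 and 7 they had the highest level of the populations measured. Pooled levels were 1482 CPM (1329 to 1648) in Schwann-like and 1165 CPM (1100 to 1234) in osteoblast-like nuclei, and 32.7 CPM in immune-like nuclei.

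Slit3 was abundant in the resting mesenchyme. SSPC-like nuclei held 4419 and 4696 CPM and fibroblast-like nuclei 4003 and 5371 CPM in the uninjured libraries, with the SSPC-like value the higher in the first library, within counting error, and the lower in the second. Fibroblast-like nuclei then held 3160 and 1646 CPM at day 3, 1240 CPM at day 5 and 1944 CPM at day 7. IIFC-like nuclei held 1359 and 1660 CPM without injury, 1285 and 1351 CPM at day 3, 567 CPM at day 5 and 760 CPM at day 7. Pericyte and smooth muscle-like nuclei carried it at 1777 and 2788 CPM without injury, 1485 CPM at day 5 and 1345 CPM at day 7. Immune-like, osteoclast-like and endothelial-like nuclei had the lowest pooled levels, at 74.3, 72.3 and 66.8 CPM.

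Robo1, the broadly expressed Slit receptor, was read in nearly every mesenchymal population. Pooled levels ran from 1327 CPM (1292 to 1362) in IIFC-like and 1083 CPM (1020 to 1149) in osteoblast-like nuclei through 887 in fibroblast-like, 707 in tendon-like and 608 in SSPC-like nuclei, the last 2 of these with overlapping intervals, down to 51.8 in immune-like and 49.3 in osteoclast-like nuclei. The pooled order leans on days 5 and 7, which gave 510 and 308 of the 1120 IIFC-like nuclei. In uninjured replicate 2 the order was 941 CPM in osteoblast-like, 676 in SSPC-like, 635 in tendon-like and 361 in IIFC-like nuclei. Fibroblast-like nuclei held 114 and 240 CPM without injury, 786 and 922 CPM at day 3, 1275 CPM at day 5 and 711 CPM at day 7, each level after fracture above both without. IIFC-like nuclei held 375 and 361 CPM, then 495 and 706, then 1695 and 1205 CPM. Pericyte and smooth muscle-like nuclei held 6.28 and 9.42 CPM without injury, 590 CPM at day 5 and 114 CPM at day 7.

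Robo2 had its highest levels in osteoblast-like nuclei. Osteoblast-like nuclei held 376 CPM in uninjured replicate 2, 1388 CPM in day 3 replicate 2, 1697 CPM at day 5 and 232 CPM at day 7, and 1 nucleus gave 74 of the 210 UMIs in the day 3 library. In uninjured replicate 2 the tendon-like level, 461 CPM, was above the osteoblast-like level by less than counting error. Pooled, osteoblast-like nuclei held 1286 CPM (1217 to 1357), tendon-like 265, nerve-sheath fibroblast-like 183 and IIFC-like nuclei 58.4 CPM. Schwann-like nuclei held 0 and 60.8 CPM in the uninjured libraries, the only ones with at least 20 of them.

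These rankings changed with the clustering for some genes. At a resolution of 0.8, where no SSPC-like, tendon-like or nerve-sheath fibroblast-like cluster was named, 4 of 9 genes kept their top population, and Sema3c and Slit3 were highest in fibroblast-like, Sema3e in Schwann-like, Sema3d in chondrocyte-like and Sema3a in adipocyte-like nuclei. With the guidance genes and markers allowed as clustering features, where again no SSPC-like cluster was named, 5 of 9 did, and Sema3c, Slit3, Sema3e and Sema3d moved to the same populations as at 0.8. The SSPC-like peaks of Sema3c and Sema3e, and that of Slit3 in the pooled levels, thus hold only where such a cluster was named. By library the peak of Slit3 did not hold throughout. In uninjured replicate 2 fibroblast-like nuclei were higher, at 5371 against 4696 CPM.

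Day 3 was compared with no injury in the stromal nuclei by summing UMIs per library, which asks how guidance genes of the stromal populations differ 3 days after fracture. Of the members tested, 3 semaphorins fell. Sema3c was at 882 and 1048 CPM in uninjured replicates 1 and 2, at 119.5 and 70.8 CPM in day 3 replicates 1 and 2, at 293 CPM (279 to 307) at day 5 and at 187 CPM (166 to 209) at day 7. The groups did not overlap, and the single libraries of days 5 and 7 lay between them.

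Sema3d was at 145 and 216 CPM without injury, 9.56 and 16.2 CPM at day 3, 137 CPM (128 to 148) at day 5 and 91.1 CPM (76.8 to 107) at day 7. The day 5 and day 7 intervals both reached that of the lower uninjured library (88.3 to 223). Chondrocyte-like nuclei, in which Sema3d was high, made up 15.2% of the stromal nuclei at day 5 and 30.5% at day 7. Sema3e was at 79.5 and 289 CPM without injury, 7.17 and 14.5 CPM at day 3, 19.9 CPM (16.4 to 24.0) at day 5 and 17.8 CPM (11.9 to 25.8) at day 7. All 4 libraries after fracture lay below both uninjured ones, and the day 3 values rested on 3 and 26 UMIs.

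Of the 8 members tested in stromal nuclei, 3 fell and 0 rose, beside 429 of 9513 genes that fell (4.51%) and 718 called in either direction (7.55%). The log2 fold changes were -3.40 for Sema3c (965 ± 117 to 95.2 ± 34.5 CPM, SD, n = 2 each; adjusted p = 0.00418), -3.86 for Sema3d (180.1 ± 50.2 to 12.9 ± 4.67 CPM; adjusted p = 0.00211) and -4.17 for Sema3e (184 ± 148 to 10.8 ± 5.18 CPM; adjusted p = 0.00604). Pairing each day 3 library with each uninjured one, every semaphorin of these 3 was lower in 4 of 4 pairs. DESeq2 gave -3.30 ± 0.47, -3.79 ± 0.66 and -4.10 ± 0.75 (SE), with adjusted p = 5.57e-10, 1.16e-06 and 6.63e-06, and also called 3 lower and 0 higher, beside 3.19% and 2.2% of the genes it tested (5.38% in either direction). The median log2 fold change of the tested members was -1.14, against 0.01 over all genes tested. With 2 libraries against 2 an exact permutation test cannot go below 0.333, so the calls rest on the spread that edgeR shares over genes.

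Without uninjured replicate 2 the call for Sema3e was lost (log2 fold change -2.81, adjusted p = 0.152, its range over all alternatives being 1.01e-12 to 0.152), those for Sema3c and Sema3d held (adjusted p = 0.0305 and 0.0369, the latter the highest of its range, whose lowest was 1.17e-10), and 113 genes were called. Without uninjured replicate 1, the library with reporter UMIs, all 3 held (-3.52, -4.09 and -4.72; adjusted p = 8.69e-05, 2.68e-05 and 3.49e-06). In the sum over all populations in place of the stromal ones, Sema3c lost its call (-2.04, adjusted p = 0.0905, range 5.57e-10 to 0.0905). Sema3e was nearer 0 at a resolution of 0.8 (-2.56, adjusted p = 0.0228) and with the mitochondrial limit at 5% and no ribosomal limit (-2.28, adjusted p = 0.0358). After the kept nuclei had been clustered anew, an alternative chosen after seeing the data, Sema3e was too low to be tested.

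The other members of the stromal test did not pass. Slit3 was at 3514 and 4392 CPM without injury, 1951 and 1461 CPM at day 3, 800.1 CPM at day 5 and 873 CPM at day 7. It was lower in 4 of 4 pairs (log2 fold change -1.24, adjusted p = 0.14), and was called when day 3 replicate 1 was left out (-1.57, adjusted p = 0.0410, range over all alternatives 0.0410 to 0.912). Robo1 was at 217 and 452 CPM, then 586 and 762, then 1337 CPM (1306 to 1367) at day 5 and 749 CPM (707 to 793) at day 7. It was higher in 4 of 4 pairs without passing the test (0.90, adjusted p = 0.247).

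Slit2 was at 231 and 525 CPM without injury and 112 and 297 CPM at day 3 (-1.04, adjusted p = 0.251, lower in 3 of 4 pairs), with 594 CPM at day 5 and 282 CPM at day 7. Sema3a was at 43.4 and 168 CPM without injury and 28.7 and 94.8 CPM at day 3 (-1.0, adjusted p = 0.39, lower in 3 of 4 pairs). Both were called lower when day 3 replicate 2 was left out (-1.60 and -1.85; adjusted p = 0.0264 and 0.049981, over ranges of 0.0264 to 0.865 and 0.000328 to 0.981). Robo2 was at 14.5, 64.5, 16.7 and 144 CPM over the same libraries (0.64, adjusted p = 0.721). Sema3g, with 0 UMIs in 3 of the 4 libraries, was not tested.

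**Figure D2:**
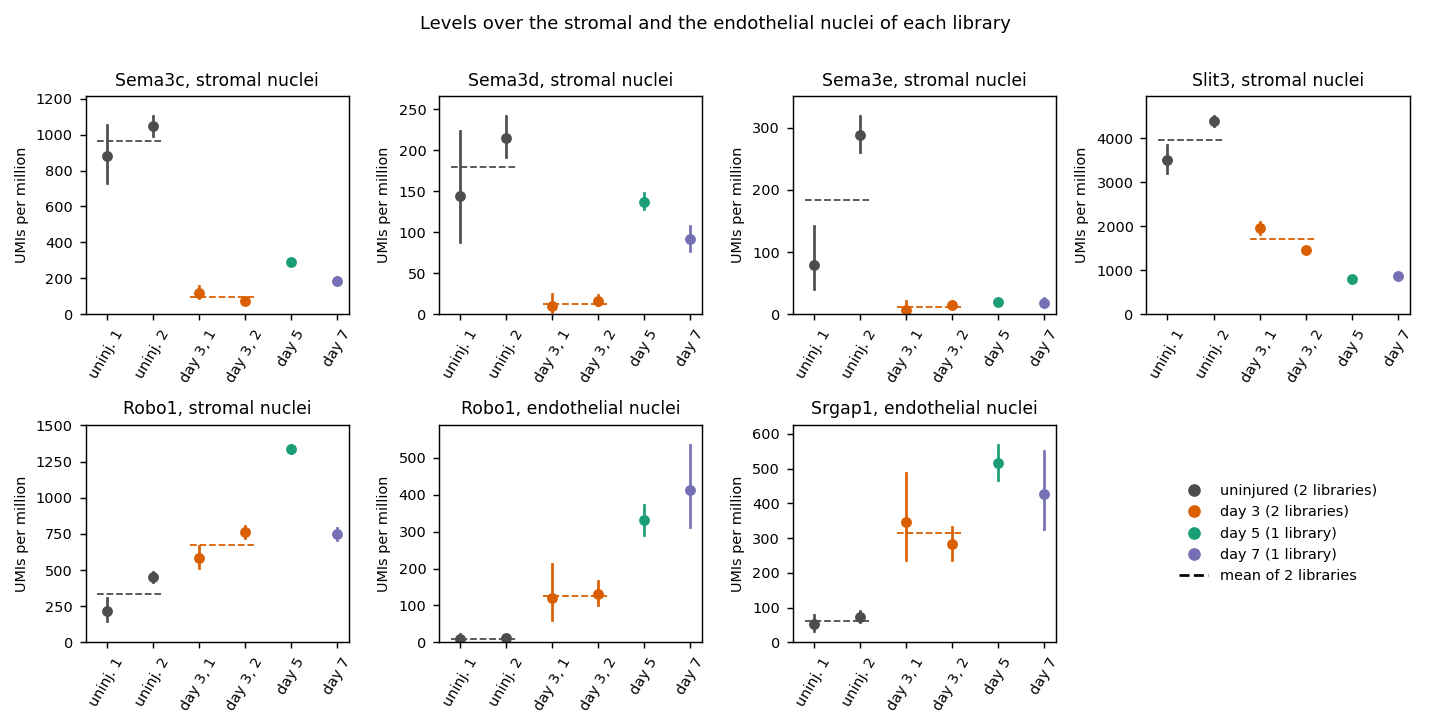
Level (CPM) of Sema3c, Sema3d, Sema3e, Slit3 and Robo1 in stromal nuclei and of Robo1 and Srgap1 in endothelial-like nuclei, 1 point for each of the 6 libraries with its 95% Poisson interval, and a dashed line for the mean of a group with 2 libraries. The 3 semaphorins lie lower at day 3 than without injury, and endothelial Robo1 lies higher in each of the 4 libraries after fracture.

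The makeup of the stromal nuclei moved with these changes. SSPC-like nuclei were 28.1% and 20.8% of them without injury, then 2.33% and 4.00% at day 3, with 1.54% left at day 5 and 2.35% at day 7, and IIFC-like nuclei were 31.2% and 24.6%, then 64.3% and 44.8%, then 46.2% and 40.2%. The 4 SSPC markers, each detected in all 6 libraries, summed to 2205 and 1324 CPM, then 57.4 and 94.2, then 46.2 and 31.9 CPM, with Pi16 on top in uninjured replicate 1 and at days 5 and 7, Dpp4 in uninjured replicate 2, Ly6a in day 3 replicate 1 and Cd34 in day 3 replicate 2. Immune markers in the stromal sum were at 57.8 and 21.3 CPM without injury (2 and 5 of 7 detected, Adgre1 and Csf3r at 0 in both), 203 and 576 CPM at day 3, 116 CPM at day 5 and 43.3 CPM at day 7 (7 of 7), with Dock2 or Ptprc on top. Without the 92 nuclei of the stromal subcluster led by the immune genes Fyb, Dock2 and Ptprc, a choice made after seeing the data, the log2 fold changes were -3.27 for Sema3c, -3.63 for Sema3d and -4.29 for Sema3e (adjusted p = 0.00183, 0.00096 and 0.00302).

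Further marker lists moved in the stromal sums. Fibroblast markers summed to 3724 and 8443 CPM without injury and 1597 and 1821 CPM at day 3, with 6, 6, 5 and 6 of 6 detected, C7 at 0 in day 3 replicate 1, and Csmd1, then Bmper on top. Endothelial markers summed to 470.0 and 211, then 33.5 and 63.6 CPM, with 7, 8, 6 and 8 of 8 detected, Tek, then Erg on top, Emcn at 0 in both replicates 1 and Flt1 in that of day 3. Pericyte and smooth muscle markers summed to 159 and 135, then 35.9 and 77.5 CPM, with 6, 7, 6 and 6 of 7 detected and Tagln, Abcc9, Notch3 and Acta2 on top. Abcc9 was at 0 in uninjured replicate 1 and Kcnj8 in both day 3 libraries. Myogenic markers summed to 701 and 727, then 327 and 328 CPM, with Ttn on top and Myh4, Ckm and Acta1 at 0 in day 3 replicate 1, and the 6 IIFC markers, each detected in all 4, to 2184 and 3862, then 4494 and 8249 CPM, with Col3a1 on top. The part of these lists and of the SSPC-like share in the result was not tested.

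Fits were also made within single populations, a choice made after seeing the data. In fibroblast-like nuclei alone, Sema3c (-2.33, adjusted p = 0.0153) and Sema3d (-4.77, adjusted p = 0.000871) fell and Robo1 rose (2.21, adjusted p = 0.0178), each in 4 of 4 pairs. So 1 of 6 tested members was higher beside 2.23% of 6557 genes, and 2 were lower beside 2.67% (4.9% in either direction). Without uninjured replicate 1 the log2 fold changes of Sema3c and Sema3d were -2.62 and -5.08. The call for Robo1 was lost without uninjured replicate 1, the library with reporter UMIs (1.77, adjusted p = 0.0807, range with a library left out 0.000701 to 0.0807), and that for Sema3d without uninjured replicate 2 (-4.44, adjusted p = 0.0518, range 3.43e-07 to 0.0518). Sema3e was not tested with all libraries, since it was at 0 CPM in uninjured replicate 1 and 116 CPM in replicate 2, against 7.22 and 3.92 CPM at day 3, lower in 2 of 4 pairs and higher in the other 2. It was called lower without uninjured replicate 1, the library at 0 (-4.69, adjusted p = 0.0004), and without day 3 replicate 1 (-4.32, adjusted p = 0.00264), and not without day 3 replicate 2 (-3.20, adjusted p = 0.223).

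Marker lists moved within the fibroblast-like nuclei too. The 4 SSPC markers, each detected, summed to 976 and 738 CPM without injury and to 93.8 and 105 CPM at day 3, with Pi16 on top in uninjured replicate 1 and Cd34 in the other 3. Their own 6 fibroblast markers summed to 4507 and 12277 CPM, then 3023 and 2752 CPM, with Csmd1, then Bmper on top and C7 at 0 in day 3 replicate 1. Immune markers summed to 48.8 and 10.2, then 86.6 and 378 CPM, with 1, 3, 5 and 7 of 7 detected, and Adgre1 and Csf3r at 0 in all tested libraries but day 3 replicate 2.

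The 6 IIFC markers, each detected, summed to 2359 and 4237 CPM in fibroblast-like nuclei without injury and 4827 and 8399.9 CPM at day 3, with Col3a1 on top. They summed to 9087 CPM at day 5 and 5529 CPM at day 7, where the fibroblast markers summed to 2623 and 1663 CPM. In every library after fracture they were thus above the fibroblast markers, and the name of these nuclei is in doubt there. Endothelial markers in them summed to 195 and 129, then 43.3 and 79.8 CPM (5, 8, 4 and 8 of 8 detected, Tek, Tek, Cdh5 and Erg on top, Pecam1 and Emcn at 0 in both replicates 1, Erg in the uninjured one and Flt1 and Ptprb in the day 3 one). Pericyte and smooth muscle markers summed to 97.6 and 181, then 50.5 and 73.2 CPM (4, 7, 3 and 6 of 7 detected, Tagln, Abcc9, Notch3 and Notch3 on top, Rgs5 at 0 in both replicates 1, Notch3 and Abcc9 in the uninjured one, Acta2 and Myh11 in the day 3 one, and Kcnj8 in both day 3 libraries). Myogenic markers summed to 293 and 493, then 216 and 290.2 CPM (6, 6, 2 and 6 of 6 detected, Ttn on top, Myh4, Myh1, Ckm and Acta1 at 0 in day 3 replicate 1). The part of these lists in the result was not tested.

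In IIFC-like nuclei alone, 3 of 6 members were lower beside 4.51% of 4214 genes (6.74% in either direction): Sema3c (-3.43, adjusted p = 0.00178), Sema3d (-5.28, adjusted p = 0.000235) and Sema3a (-4.49, adjusted p = 0.000328), each in 4 of 4 pairs. For Sema3d and Sema3a 1 nucleus of uninjured replicate 2 carried 41 of 53 and 58 of 126 UMIs, and without that library Sema3d was too low to be tested and Sema3a was not called (-1.91, adjusted p = 0.402, range 3.73e-07 to 0.402). Sema3c was not called without day 3 replicate 1 (-3.89, adjusted p = 0.073) or replicate 2 (-2.72, adjusted p = 0.202, range 2.97e-05 to 0.202). Without uninjured replicate 1 all 3 were called (-3.76, -5.72 and -5.11; adjusted p = 2.97e-05, 1.89e-06 and 3.73e-07). Sema3e was not tested with all libraries, being at 0 and 149.7 CPM without injury and 8.32 and 23.5 CPM at day 3, lower in 2 of 4 pairs and higher in 2. It was called lower only without uninjured replicate 1, the library at 0 (-3.22, adjusted p = 0.00451).

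The IIFC-like nuclei of the uninjured libraries held less of the 6 IIFC markers, 2015 and 2245 CPM, than of the 6 fibroblast markers, 3936 and 6675 CPM, against 4009 and 8705 CPM and 927 and 1067 CPM at day 3, so that their name rests on the nuclei after fracture. Immune markers in them summed to 46.9 and 27.2, then 287 and 796 CPM (1, 4, 7 and 7 of 7 detected, Dock2 or Ptprc on top), and SSPC markers to 375 and 939, then 37.4 and 73.0 CPM (3, 4, 3 and 4 of 4 detected, Dpp4 at 0 in both replicates 1). Myogenic markers summed to 1593 and 1517, then 428 and 318 CPM (6, 6, 3 and 6 of 6 detected, Ttn on top, Myh4, Ckm and Acta1 at 0 in day 3 replicate 1), and endothelial markers to 422 and 238, then 33.3 and 44.3 CPM (4, 7, 5 and 8 of 8 detected, Pecam1, Flt1, Tek and Pecam1 on top, Emcn at 0 in all but day 3 replicate 2, Flt1 in both replicates 1, Kdr and Erg in the uninjured one and Cdh5 in the day 3 one). Their part was not tested. Robo1 was called in fibroblast-like and not in IIFC-like nuclei (0.67, adjusted p = 0.593), and the difference was not tested.

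Subclusters of the stromal nuclei placed the members more finely. The SSPC-like subcluster led by Opcml, Dpp4 and Pi16 (111 nuclei) held Sema3c at 1805 CPM, Sema3e at 485 CPM and Slit3 at 3852 CPM. An IIFC-like subcluster led by Enpp1, Brinp3 and Tnc (604 nuclei) held Robo1 at 1481 CPM, with 382 and 773 CPM at day 3, 1790 CPM at day 5 and 1164 CPM at day 7. An osteoblast-like subcluster led by Fat3, Cadm1 and Col22a1 (294 nuclei) held Robo2 at 1370 CPM and Slit2 at 1206 CPM, and the chondrocyte-like subcluster led by Hapln1, Col2a1 and Col9a1 (336 nuclei) held Sema3d at 448 CPM. Of 2 fibroblast-like subclusters, that led by Apod, Abca8a and Ntrk2 (388 nuclei) held Slit3 at 3246 CPM and that led by Brinp1, Igf1 and Pdzrn4 (259 nuclei) Slit2 at 1044 CPM and Robo1 at 1234 CPM. A further subcluster, led by Lars2, Gm42418 and AY036118 (574 nuclei, median 957.5 UMIs), stayed unnamed. It made up 50% and 29.1% of the stromal nuclei without injury and 24.0% and 17.6% at day 3. At days 5 and 7 it made up 15.7% and 24.4%. The part of this share in the stromal result was not tested.

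In the endothelial-like nuclei 1 member, the receptor Robo1, was called. Robo1 was at 9.44 and 11.9 CPM in uninjured replicates 1 and 2, at 119 and 130.5 CPM in day 3 replicates 1 and 2, at 330.4 CPM (292 to 373) at day 5 and at 413 CPM (313 to 535) at day 7. The groups did not overlap, and days 5 and 7 were higher than either day 3 library. The tested values rested on 4, 14, 11 and 69 UMIs in 216, 254, 39 and 74 nuclei, and 1 nucleus carried 23 of the 69.

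Of the 7 members tested here, 1 rose and 0 fell, beside 164 of 7218 genes that rose (2.27%) and 320 called in either direction (4.43%). Robo1 went from 10.7 ± 1.72 to 125 ± 8.10 CPM (SD, n = 2 each; log2 fold change 3.37, adjusted p = 0.0149), higher in 4 of 4 pairs, and DESeq2 gave 3.36 ± 0.78 (SE; adjusted p = 0.0021), its only member called, beside 1.3% of genes higher and 1.65% lower (2.95% in either direction). The median over tested members was -0.03, against -0.01 over all genes tested. The call was lost without uninjured replicate 2 (3.50, adjusted p = 0.0548), without day 3 replicate 1 (3.31, adjusted p = 0.0774) and without day 3 replicate 2 (3.42, adjusted p = 0.243), and held without uninjured replicate 1 (3.25, adjusted p = 0.000518), over a range of 2.84e-06 to 0.243 for all alternatives. These 3 losses came with all-gene counts of 110, 14 and 1. Without uninjured replicate 1, Sema3d was called lower as well (-2.26, adjusted p = 0.00322, range 0.00322 to 0.99). With no filter on low counts Sema3a was called higher (1.44, adjusted p = 0.0091, range 0.0091 to 0.662) and Sema3d lower (-1.63, adjusted p = 0.0221). Of the 331 Sema3d UMIs in endothelial-like nuclei of all libraries, 311 lay in the lymphatic-like subcluster. That subcluster held 21 and 29 nuclei without injury and 2 and 4 at day 3. Its part in the Sema3d calls was not tested.

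The other ligands did not pass in endothelial-like nuclei. Sema3a was at 21.2 and 119 CPM without injury and 346 and 161 CPM at day 3 (1.56, adjusted p = 0.268, higher in 4 of 4 pairs), with 28 of the 32 UMIs of day 3 replicate 1 in 1 nucleus. Sema3c was at 82.6, 100.1, 97.4 and 18.9 CPM and Sema3d at 35.4, 184, 21.6 and 51.1 CPM over the 4 libraries (-1.33 and -1.55; adjusted p = 0.378 and 0.308). Sema3g, Slit2 and Slit3 had log2 fold changes of -0.48, -0.03 and 0.48, and Sema3e and Robo2 did not pass the filter of edgeR, while DESeq2 tested Robo2 without calling it (-1.52, lower in 3 of 4 pairs, adjusted p = 0.946).

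Endothelial Robo1 was not the only value to differ between these libraries. The subcluster named capillary-like (184 nuclei, led by Kit, Mest and Rgcc) made up 3.24% and 12.2% of endothelial-like nuclei without injury, 43.6% and 36.5% in the day 3 libraries, and 32.9% at day 5 with 27.7% at day 7, and within it Robo1 was at 7.52 CPM in uninjured replicate 2, 236 CPM in day 3 replicate 2, 495 CPM at day 5 and 662 CPM at day 7. Robo1 was also read outside it, at 43.6 and 26.6 CPM (4 and 1 UMIs) without injury and 314 CPM at day 5 in the unnamed shallow subcluster, and at 0 and 7.19 CPM without injury, 59.5 CPM at day 5 and 125 CPM at day 7 in the venous and sinusoidal-like one led by Tacr1. Without injury it was at 0 and 27.05 CPM in that led by Gria3. That subcluster held 100 Robo1 UMIs over all libraries (174 CPM), of which 0 and 6 came from the uninjured ones. Its 3 and 10 nuclei at day 3, 18 at day 5 and 9 at day 7 were too few for levels by library. In the arterial-like one Robo1 was at 0 and 4.38 CPM without injury. In the lymphatic-like one it was at 0 and 14.2 CPM without injury and 0 at day 5. When the capillary-like subcluster was left out, a choice made after seeing the data, Robo1 was no longer called (2.79, adjusted p = 0.0786) and 37 genes were. The 6 capillary markers summed to 569 and 723 CPM without injury and 563 and 739 CPM at day 3, with 4, 5, 4 and 6 of them detected, and so did not separate the groups. Fibroblast markers in the same nuclei summed to 54.3 and 85.7 CPM without injury, 97.4 and 96.4 CPM at day 3, 126 CPM at day 5 and 138 CPM at day 7, with Csmd1 on top, and IIFC markers to 151 and 555, then 389 and 857, then 782 and 660 CPM. Immune markers summed to 9.44 and 35.6 CPM without injury and 195 and 516 CPM at day 3, with 3, 6, 6 and 7 of 7 detected, and Dock2, Mrc1, Mrc1 and Ptprc on top. Pericyte and smooth muscle markers summed to 189 and 109, then 10.8 and 20.8 CPM, with 6, 7, 1 and 4 of 7 detected and Tagln, the top marker without injury, at 0 in both day 3 libraries. The 6 venous and sinusoidal markers, each detected, summed to 1881 and 1555, then 833 and 798 CPM, with Vwf, then Selp on top. The nuclei's own 8 endothelial markers, each detected, summed to 7149.99 and 7787, then 4890.35 and 6255 CPM, with Ptprb on top without injury and Flt1 and Pecam1 at day 3. SSPC markers summed to 333 and 366, then 141 and 269 CPM, with 4, 4, 2 and 4 of 4 detected, Cd34 on top and Pi16 and Dpp4 at 0 in day 3 replicate 1. Arterial-like nuclei made up 11.1% and 22.8%, then 10.3% and 6.76% (24, 58, 4 and 5 nuclei), and lymphatic-like nuclei 9.72% and 11.4%, then 5.13% and 5.41% of the endothelial-like nuclei. The part of these lists and shares in the result was not tested. Immune-like nuclei, in which free RNA can be read, held Robo1 at 35.9 (from 1 UMI), 48.8, 26.3 and 33.0 CPM in the 4 tested libraries, 100.03 CPM at day 5 and 189 CPM at day 7. At day 7 their immune markers summed to 1958 CPM, against 3555 CPM of myogenic and 1256 CPM of IIFC markers. The name of the immune-like nuclei is therefore in doubt at day 7.

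Endothelial subclusters differed in their ligands. The lymphatic-like subcluster (88 nuclei, led by Mmrn1, Reln and Sema3d itself) held Sema3a at 988 CPM and Sema3d at 1138 CPM. For Sema3d this was 254 CPM in uninjured replicate 1, 1535 CPM in uninjured replicate 2 and 990.3 CPM at day 5, and for Sema3a 152, 980.4 and 1152 CPM. The arterial-like subcluster (111 nuclei, led by Nebl, Prdm16 and Efna5) held Sema3g at 458 CPM and Slit2 at 103 CPM. Its Slit2 interval (73.6 to 139) overlapped that of the subcluster led by Gria3, at 90.4 CPM (67.5 to 119). Of the venous and sinusoidal-like subclusters, that led by Gria3, Mdga2 and Plxdc2 (102 nuclei) held Robo1 at 174 CPM and Slit3 at 181 CPM, and that led by Tacr1, Cadm3 and Selp (201 nuclei) held Robo1 at 22.1 CPM. A shallow subcluster led by Gm48099, Gm19951 and Gm42418 (220 nuclei, median 752 UMIs) stayed unnamed and made up 52.8% of the endothelial-like nuclei of uninjured replicate 1.

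**Figure D3:**
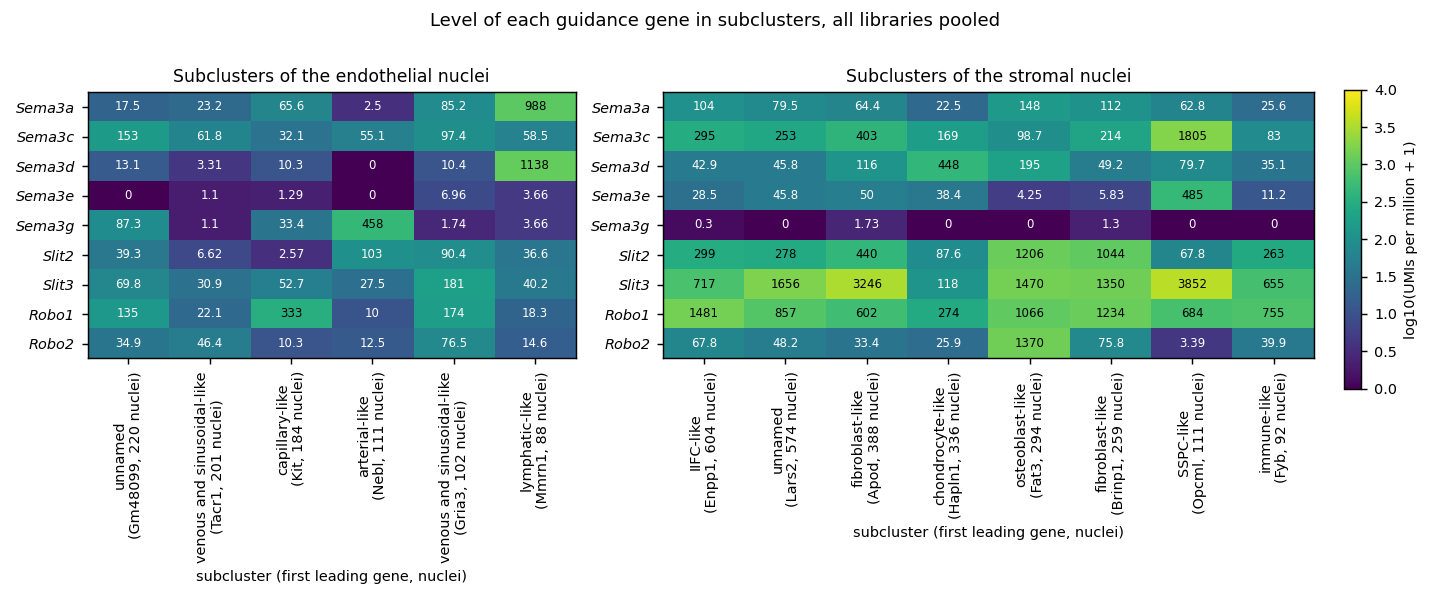
Level of each of the 9 genes (colour, log10 of CPM + 1; numbers, CPM) in subclusters of the endothelial-like and the stromal nuclei, pooled over libraries. Sema3a and Sema3d stand at 988 and 1138 CPM in the lymphatic-like subcluster and Sema3g at 458 CPM in the arterial-like one.

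Immune-like nuclei, the most numerous at day 3, held little of these genes. Slit3 was at 503 and 344 CPM without injury and 75.5 and 38.0 CPM at day 3, Sema3a at 71.8 and 46.1, then 9.85 and 6.18, and Sema3c at 179.5 and 255, then 144 and 41.8 CPM. Of 4 members tested, 0 were called by edgeR, beside 0 of 6323 genes (0%), with 2 members at an unadjusted p under 0.05. DESeq2 called 0 of 5 members, with 1 at an unadjusted p under 0.05, and 125 genes in all (1.42%; 0.0454% higher and 1.37% lower). Slit3 had a log2 fold change of -2.68 (adjusted p = 0.0902, lower in 4 of 4 pairs), and was called when libraries were scaled by their totals (-2.98, adjusted p = 0.0496, range 0.0496 to 1.0), a choice made after seeing the data. The median of all genes was 0.20 with TMM scaling and -0.04 with library totals, against 0.01 and 0.11 in stromal and -0.01 and 0.14 in endothelial-like nuclei.

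The immune-like nuclei of uninjured replicate 1 (37 nuclei, 27851 UMIs) went against their name. Immune markers summed to 503 CPM there, with 5 of 7 detected and Csf3r and Itgam at 0. In the other 3 tested libraries they summed to 5670, 4136 and 6463 CPM. Pericyte and smooth muscle markers summed to 2047 CPM there, with Acta2 on top at 718 CPM, against 453, 19.7 and 42.3 CPM. Fibroblast markers summed to 180 and 710 CPM without injury and 78.8 and 61.3 CPM at day 3. Endothelial markers summed to 610 and 461, then 59.1 and 119 CPM, and myogenic markers to 1652 and 1472, then 758 and 380 CPM. SSPC and IIFC markers overlapped between the groups. Their part was not tested. Without this library 0 members and 0 genes were called.

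Receptors and partners of the members had patterns of their own. Robo4, the endothelial member of the Robo family, was at 113 and 127 CPM in endothelial-like nuclei without injury, 97.4 and 136 CPM at day 3, 143 CPM at day 5 and 116 CPM at day 7, so that the groups overlapped. Srgap1, an intracellular partner of Robo1, was at 51.9 and 72.1 CPM, then 346 and 282, then 517 and 428 CPM. It rose in endothelial-like nuclei (log2 fold change 2.17, adjusted p = 0.0156, 4 of 4 pairs). In stromal nuclei it did not pass (-0.84, adjusted p = 0.192), and the difference between the populations was not tested. SSPC-like nuclei held it at 638 and 870 CPM without injury.

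Among semaphorin receptors, Plxnd1, the receptor of Sema3e, was at 276 and 192 CPM in endothelial-like nuclei without injury, 271 and 231 CPM at day 3, 320.4 CPM at day 5 and 399 CPM at day 7. Nrp1, the neuropilin of Sema3a, was at 618 and 892 CPM in fibroblast-like nuclei without injury and 469 and 413 CPM at day 3, and at 234, 396, 400.3 and 471 CPM in endothelial-like nuclei. Nrp2 and Plxna4 were highest in osteoclast-like nuclei, at 2331 and 2030 CPM at day 5 and 1459 and 1578 CPM at day 7. In stromal nuclei Nrp1, Nrp2, Plxna2, Plxna4 and Plxnd1 had log2 fold changes of -0.76, -0.28, -0.91, 1.86 and 0.27, and none of these 5 was called (adjusted p = 0.228, 0.80, 0.269, 0.0727 and 0.891).

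A wider list of 60 genes of the same pathways was counted in the same tests, in 7 roles. In stromal nuclei 45 were tested, of which 3 fell and 0 rose, with 11 at an unadjusted p under 0.05, beside 4.51% of all genes lower and 3.04% higher. DESeq2 called 3 lower and 0 higher of 47. The median log2 fold change was -0.24, against 0.01 over all genes. By role, 2 of 8 netrin and repulsive guidance genes and 1 of 9 semaphorin effectors were called, and 0 of 9 semaphorin receptors, 0 of 7 transmembrane semaphorins and 0 of 11 Slit-Robo partners by edgeR.

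The genes that fell were Ntn1, the secreted guidance cue netrin 1, at 354 and 466 CPM without injury and 35.9 and 34.6 CPM at day 3 (-3.65, adjusted p = 0.0011), Ntn4, a netrin of basement membranes, at 325 and 242, then 52.6 and 75.3 CPM (-2.19, adjusted p = 0.00813), and Fyn, a Src-family kinase, at 412 and 499, then 143 and 209 CPM (-1.45, adjusted p = 0.0282). Each was lower in 4 of 4 pairs. The call for Fyn was lost without uninjured replicate 2 (-1.24, adjusted p = 0.177), without day 3 replicate 1 (-1.26, adjusted p = 0.141), over all populations (-0.75, adjusted p = 0.137), after clustering anew (-0.08, 0.95) and in both single populations (-0.95, 0.279 in fibroblast-like and -0.58, 0.647 in IIFC-like nuclei), with a range of 0.0125 to 0.95. That for Ntn4 was lost after clustering anew (-1.51, adjusted p = 0.0505) and in fibroblast-like nuclei alone (-1.55, 0.0685, range 0.00011 to 0.0685).

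In endothelial-like nuclei 37 of the list were tested, of which 1 rose and 3 fell, with 10 at an unadjusted p under 0.05, beside 2.27% of all genes higher and 2.16% lower. DESeq2 called 1 higher and 2 lower of 40. Beside Srgap1, which rose, Ntn1 fell from 396 and 411 to 119 and 104 CPM (-2.03, adjusted p = 0.0156) and Unc5c, a netrin receptor, from 116 and 58.5 to 10.8 and 1.89 CPM (-4.74, adjusted p = 0.0265), each in 4 of 4 pairs. Sema5b, under 50 CPM and named after its values were seen, went from 40.1 and 28.0 to 0 and 1.89 CPM (-4.37, lower in 4 of 4 pairs; adjusted p = 0.0406 by edgeR, 0.186 by DESeq2). Without uninjured replicate 2 the calls for Srgap1 and Ntn1 were lost (2.396 and -2.05; adjusted p = 0.0650 and 0.0576). Without day 3 replicate 1 those for Srgap1, Ntn1 and Unc5c were lost (1.91, -2.20 and -5.60; 0.0931, 0.0774 and 0.0936), and likewise without day 3 replicate 2 (2.46, -1.76 and -2.95; 0.206, 0.243 and 0.378). Without the capillary-like subcluster these 3 were not called either (1.93, -1.53 and -5.11; 0.0652, 0.0746 and 0.0525). The lowest adjusted p of their alternatives were 1.05e-05 for Srgap1, 2.39e-06 for Ntn1 and 2.02e-06 for Unc5c, and the highest those without day 3 replicate 2. In immune-like nuclei 0 of 34 were called by edgeR, beside 0% of all genes, with 8 at an unadjusted p under 0.05. DESeq2 called 1 of 42, which was lower, beside 1.37% of genes lower (1.42% in either direction). This was Mical3, named after its values were seen (-3.61, lower in 4 of 4 pairs, adjusted p = 0.0232 by DESeq2).

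Shares of nuclei with a UMI were read after each nucleus had been thinned to 500 UMIs, beside the share in immune-like nuclei as background. Robo1 was found in 35.8% of 1115 IIFC-like nuclei (median 2343 UMIs; 63.8% before thinning) and 35.5% of 327 osteoblast-like nuclei (1705 UMIs; 62.8%), against 3.58% of 2009 immune-like nuclei (1697 UMIs; 10.9%). Endothelial-like nuclei, pooled over all libraries, were near that background, at 4.09% of 905 (2174 UMIs, 12.0% before thinning). Their Robo1 level ran from 9.44 to 413 CPM over the libraries, which the pooled share does not show. Slit3 was found in 70.7% of 140 SSPC-like nuclei (3140 UMIs; 90.7%), against 5.72% in immune-like nuclei (12.0%). Sema3c was found in 42.9% of the SSPC-like nuclei (69.3%), against 4.88% (13.5%), and Sema3e in 11.4% (31.4%), against 0.199% (1.14%).

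For Robo2 the share was 33.6% of osteoblast-like nuclei (48.5% before thinning), against 0.846% of immune-like nuclei (2.42%), and for Slit2 29.4% (47.9%) against 2.24% (5.58%). Sema3d was found in 12.6% of nerve-sheath fibroblast-like nuclei (median 2615 UMIs; 35.9%), against 0.597% (1.58%), and Sema3a in 14.8% of tendon-like nuclei (3047 UMIs; 26.5%), against 0.896% (2.62%). Sema3g was found in 5.26% of Schwann-like and 3.31% of endothelial-like nuclei, against 0.0996% in immune-like nuclei (17.1%, 11.9% and 0.346% before thinning). In IIFC-like nuclei 0 of 1115 held a UMI of it at this depth, which allows up to 0.330% of nuclei with a UMI, and before thinning 1 UMI was found (0.236 CPM), so expression is not bounded by these shares. The population with the highest share changed with the depth for 3 genes. Adipocyte-like nuclei led for Slit2 before thinning (51.4% of 35) and for Sema3a before thinning (31.4%) and at 1000 UMIs (21.9% of 32, against 14.3% of tendon-like nuclei), and Schwann-like nuclei for Sema3e at 1000 UMIs (20.8%, against 20.0% of SSPC-like nuclei). Thinning left out 16 immune-like, 5 IIFC-like, 1 endothelial-like and 1 osteoblast-like nuclei.

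Genes of like pattern were ranked by Pearson's r of log2(CPM + 10) over 46 sums of a population in a library, among 10130 genes. The sums of a library share depth and preparation, so r is a description with no test. Sema3c was most like Igfbp6 (r = 0.775), Htra3 and Abca6, and Sema3e most like Arnt2 (r = 0.770), Sv2c and Rorb. Sema3d was most like Lrp4 (r = 0.688), Adk and Dcn, Sema3a most like Hmcn1 (r = 0.648), Boc and Etl4, and Sema3g most like Klhl3 (r = 0.899), Fryl and Prex2. Slit2 was most like Igsf3 (r = 0.792), Tenm3 and Adamts17, and Slit3 most like Dlc1 (r = 0.830), Pdgfrb and Lhfp. For the receptors these were Bicc1 (r = 0.856), Gli3 and Focad with Robo1, and Ptprd (r = 0.769), Lmo7 and Col22a1 with Robo2. Among the members, r was 0.684 for Sema3c with Sema3e, 0.60 for Slit2 with Robo2, 0.577 for Robo1 with Robo2 and -0.461 for Robo1 with Sema3g.

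Both Slit genes host a copy of miR-218 in an intron, and the mature sequences are shown because transcription of Slit2 or Slit3 covers them. miR-218-5p lies in intron 14 of a 36-exon transcript of Slit2, at chr5:48223966-48223986, and in intron 14 of a 36-exon transcript of Slit3, at chr11:35616840-35616860, both on the plus strand of GRCm38.p6. The sequences are from RefSeq, 5′ to 3′, with the seed (bases 2 to 8) in capitals, and the arms on the 5′ side are identical while the 3′ arms have seeds of their own. The miRNAs themselves were not measured in these libraries.
miR-218-5p: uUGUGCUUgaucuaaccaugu
miR-218-1-3p: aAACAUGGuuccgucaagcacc
miR-218-2-3p: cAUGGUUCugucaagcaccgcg

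Promoters of the 3 semaphorins that fell together in stromal nuclei are shown, 5′ to 3′ on the plus strand, from 250 bases before to 50 after the start that RefSeq gives on build GRCm38.p6. That start differs from the gene bounds given above, which are those of GENCODE, for Sema3c, whose window lies inside the bounds, and for Sema3d, whose window ends before them. All 9 members matched the table of 32851 promoters, with 11 promoters. Capitals mark the motifs searched on both strands, which are GGGCGG or its complement CCGCCC as the first, CCAAT or its complement ATTGG as the second and TATAAA or its complement TTTATA as the last, held by 35.7%, 37.4% and 13.6% of all promoters. The Sema3c window (chr5:17574566-17574865) is 75.7% G or C and holds 3 matches of the first motif, the Sema3d window (chr5:12382916-12383215) is 49.7% G or C and holds 1 match of the second, and the Sema3e window (chr5:14025026-14025325) is 50.7% G or C and holds 2 of the first, against a median of 52.7% G or C over all promoters. No motif overlapped another in these windows, no motif was held by all 3, and a match is a description, not a binding site.
Sema3c promoter: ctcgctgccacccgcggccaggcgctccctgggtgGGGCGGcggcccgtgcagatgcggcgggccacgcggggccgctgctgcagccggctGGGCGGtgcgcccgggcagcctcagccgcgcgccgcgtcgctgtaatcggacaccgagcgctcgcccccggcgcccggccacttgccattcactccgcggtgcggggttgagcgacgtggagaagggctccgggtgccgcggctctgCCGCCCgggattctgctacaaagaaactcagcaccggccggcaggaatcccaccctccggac
Sema3d promoter: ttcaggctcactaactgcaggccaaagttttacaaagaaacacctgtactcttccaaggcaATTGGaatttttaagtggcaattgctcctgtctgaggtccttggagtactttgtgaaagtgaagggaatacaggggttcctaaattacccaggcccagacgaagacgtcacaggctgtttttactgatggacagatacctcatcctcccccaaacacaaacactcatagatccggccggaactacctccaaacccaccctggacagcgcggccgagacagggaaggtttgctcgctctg
Sema3e promoter: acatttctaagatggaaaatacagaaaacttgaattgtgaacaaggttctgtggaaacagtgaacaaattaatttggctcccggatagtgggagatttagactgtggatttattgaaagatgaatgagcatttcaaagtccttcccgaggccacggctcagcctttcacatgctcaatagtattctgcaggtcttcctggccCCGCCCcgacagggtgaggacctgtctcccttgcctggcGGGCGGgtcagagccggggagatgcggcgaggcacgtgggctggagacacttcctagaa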

How the data were processed

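The authors aligned the reads to mm10 with Cell Ranger (6.0.0 or 7.1.0) and deposited raw UMI counts per gene and barcode. Nuclei were kept at 200 to 5000 genes if mitochondrial UMIs made up less than 2% and ribosomal UMIs less than 1.5%, integrated by canonical correlation and clustered at a resolution of 1.3 with Seurat 5.3.0, and named from marker lists. Scrublet was run through scanpy 1.11.5. UMIs were summed per library and population and tested across libraries with the quasi-likelihood test of edgeR 4.0.16 (TMM, filterByExpr, Benjamini-Hochberg adjustment over all genes, threshold 0.05), with DESeq2 1.42.0 as an alternative. Stromal nuclei were subclustered with 15 components at 0.6 and endothelial-like nuclei with 10 at 0.4.

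The text names all members, called pathway genes averaging at least 50 CPM in the higher group (at most 12 per test, by absolute log2 fold change), 7 receptors and partners, the 3 genes of highest r per member and the 3 leading genes of each subcluster. Members and lists were chosen with earlier results of these data known. Like-pattern sums held at least 20 nuclei and 20000 UMIs, and genes at least 50 CPM in 1 sum. Leaving out a library assumed that the lone library varied like the other group.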

Additional observations from a re-analysis of the deposited data

Results flagged for a closer look

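For a pair of genes, every day 3 library lay on one side of both uninjured libraries in one kind of nuclei and on the opposite side in immune-like nuclei. The log2 ratio of mean CPM, day 3 over uninjured, was 1.01 for Robo1 in stromal nuclei, 3.55 for Robo1 in endothelial-like nuclei and 1.86 for Sema3a in endothelial-like nuclei, while both genes were lower at day 3 in immune-like nuclei. That lower side rests in part on 1 UMI of Robo1 (35.9 CPM, 95% Poisson interval 0.909 to 200.1) and 2 UMIs of Sema3a in uninjured replicate 1, whose immune-like nuclei went against their name, and neither gene was called there (adjusted p = 0.935 and 0.163). None of these 3 differences between populations was tested.

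A signal was also present outside the mouse genes. Uninjured replicate 1 held 29 UMIs of EGFP and 14 UMIs of tdTomato, above the 3 counts that a count of 0 allows, and uninjured replicate 2 held 0 of either. Its label gives no reporter allele.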

How the results depend on the processing

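Leaving out each library in turn gave 2 to 5 members called in stromal nuclei (3 with all libraries), 0 to 2 in endothelial-like nuclei (1) and 0 throughout in immune-like nuclei (0), and 2 to 4 in fibroblast-like (3) and 1 to 4 in IIFC-like nuclei alone (3), whose fits were chosen after seeing the data. For the wider list the ranges were 2 to 6 in stromal (3) and 0 to 4 in endothelial-like nuclei (4). In endothelial-like nuclei 3 members were called with no filter on low counts and 0 without the capillary-like subcluster, and in immune-like nuclei 1 was called with scaling by library totals, the last 2 chosen after seeing the data. The top population was the same for 4 of 9 members at a resolution of 0.8 and for 5 of 9 with guidance genes and markers as features. The cause was not tested.

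Genes called in all moved by over 1.5 times in these cases. For stromal nuclei, 718 became 1189 with no filter, 113 without uninjured replicate 2, 1084 over all populations, 321 in fibroblast-like and 284 in IIFC-like nuclei alone. The 284 became 499 and 185 without uninjured replicates 1 and 2, and 108 and 144 without day 3 replicates 1 and 2. For endothelial-like nuclei, 320 became 826 with no filter, 110 without uninjured replicate 2, 14 without day 3 replicate 1, 1 without day 3 replicate 2 and 37 without the capillary-like subcluster. For immune-like nuclei, 0 became 125 with DESeq2, 226 with no filter, 64 without uninjured replicate 2, 165 without day 3 replicate 1, 57 without nuclei marked by Scrublet, 21 at a resolution of 0.8 and 121 with library totals.

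Of single genes, levels and counts of all genes under the alternatives, 416 kept their side of the threshold or their size, 30 lost and 9 gained a call, 25 counts or levels moved, and 0 called changes reversed. Of 411 log2 fold changes under alternatives, 18 had the opposite sign, none called in either fit: Sema3a, Robo2, Sema3c, Sema3d, Slit2, Slit3 and Robo1, each in 1 or more populations. In stromal nuclei these were Sema3a without uninjured replicate 2 (-1.003 to 0.50) and Robo2 without day 3 replicate 2 (0.64 to -1.31) and over all populations (-1.03). The immune-like test without integration gave no value, since uninjured replicate 1 held 9 such nuclei, under the 15 required. No paired analysis was possible because replicate numbers follow accession order only.

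With 2 libraries in each tested group, and sums as small as 21340 UMIs, the precision for members of low level is limited. Sema3g in stromal nuclei, and Sema3e and Robo2 in endothelial-like nuclei, did not pass the filter of edgeR. Days 5 and 7 had 1 library each and no test. Nuclei of other types in a population, doublets and free RNA add to the levels, and levels per nucleus cannot be told apart from shifts in makeup within a population.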
